A study of Mus musculus with 20 samples.

Results

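Collagens are the main structural proteins of the extracellular matrix. Chains wind into helices that assemble into fibrils (types I, III and V), into the sheet of the basement membrane (type IV), into beaded filaments beside it (type VI), or decorate these structures (the FACIT and multiplexin collagens). Fibroblasts and related mesenchymal cells make most fibrillar chains, whereas muscle, endothelial and epithelial cells also make basement membrane chains, and in the kidney filter podocytes are the known source of the Col4a3, Col4a4 and Col4a5 chains. The genes described here are the rows of the count table whose symbol is Col, digits, the letter a and digits, which gave 44 genes of 55401. They comprise 11 fibrillar, 6 type IV, 2 multiplexin, 6 type VI, 9 FACIT, 3 network-forming and 4 transmembrane collagens, and 3 others (Col7a1, Col26a1 and Col28a1).

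RNA-seq had been performed on the heart, kidney, liver, small intestine and spleen of female wild-type (WT) and Nsun6-knockout (KO) mice at 8 weeks of age, with 2 libraries for each organ and genotype and 20 in all. The KO strain was made from fertilized C57BL/6J eggs in which CRISPR/Cas9 removed exon 3 and exon 4 of Nsun6, an RNA methyltransferase gene, in the whole body, and KO mice came from matings of heterozygotes. WT mice lack this deletion, and no further allele or treatment was given for any group. The labels do not tie libraries to animals, so the p-values measure the spread between libraries, and whether organs share animals is not known.

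The total counts of WT replicates 1 and 2 and KO replicates 1 and 2 were 32121286, 28391003, 27240407 and 26414043 in the small intestine and 32890390, 31182605, 32381398 and 44508197 in the liver. Spleen libraries held 34687048, 25021003, 30041724 and 28636897 counts, and kidney libraries 25988075, 25327492, 25220170 and 24772312. Heart libraries held 17959542, 36090637, 15897446 and 41763236 counts, so that replicate 2 was the deeper library in each genotype. Values below are given in this order of libraries. Levels are given as TPM, counts divided by the length of the merged exons of a gene and scaled to the same sum in every library, so that genes can be compared with each other. A level in whole tissue cannot tell fewer cells of a type from less RNA per cell.

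Each organ carried its defining markers. Vil1 of the enterocyte brush border had 1082, 1009, 1488 and 1113 TPM in the small intestine, and albumin (Alb) ranged from 129457 to 201296 TPM in the liver. Cd79a of B cells had 698 to 1565 TPM in the spleen, Slc34a1, a phosphate transporter of the proximal tubule, 245 to 3374 TPM in the kidney, and Myh6 of heart muscle 2608 to 6733 TPM in the heart.

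Several libraries stood apart from the others of their organ. Kidney WT replicate 2 had 245 TPM of Slc34a1 against 3374, 1696 and 933 TPM in WT replicate 1 and the KO replicates. Small intestine KO replicate 1 had a summed level of 524 TPM over 8 heart muscle genes, where the other small intestine libraries had 32.6 to 44.6 TPM. Spleen WT replicate 2 had 4498 TPM of Alb against 6.26, 145 and 213 TPM. Spleen KO replicate 1 had 174 TPM of Kap, a gene of the proximal tubule, against 1.16 to 2.59 TPM in the other spleen libraries, and 4.70 TPM of Slc34a1 against at most 0.153 TPM. Kidney KO replicate 2 had 1.72 TPM over 6 adipocyte genes, against 90.4 to 142 TPM in the other kidney libraries. In the heart, 6 airway and lung genes summed to 151, 318, 31.7 and 156 TPM, 6 adipocyte genes to 4.70, 541, 11.1 and 207 TPM, and 6 mesothelial genes to 55.4, 87.9, 10.6 and 45.3 TPM. The parts these libraries and tissues play in the collagen values were not tested. Replicate 1 and replicate 2 of the small intestine also stood apart in both genotypes. The lactase gene Lct had 0.0127, 233, 0.0655 and 688 TPM there, the apolipoprotein gene Apoa4 42.8, 1319, 76.8 and 3166 TPM, and the Paneth cell protease gene Mmp7 201, 10.5, 56.4 and 8.20 TPM. Values with single libraries left out are given beside the main results.

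Nsun6 itself had 5.48 and 2.70 TPM in WT and 5.59 and 2.44 TPM in KO small intestine. Its levels were 2.86 and 1.45 against 1.24 and 1.37 TPM in the liver, and 4.84 and 3.42 against 2.91 and 4.88 TPM in the spleen. In the kidney they were 4.09 and 2.57 against 2.26 and 1.90 TPM, and in the heart 3.11 and 3.74 against 2.41 and 3.27 TPM. The count of the whole gene cannot check the genotype, since most of its exons lie outside the deleted part.

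Collagens were of low to moderate abundance in all organs. The summed TPM of the 44 genes was 60.3, 58.8, 154 and 131 for the small intestine, 160, 141, 122 and 129 for the liver, and 225, 254, 202 and 160 for the spleen. The kidney had 499, 272, 393 and 418, and the heart 216, 584, 279 and 468. Over the 2 WT and 2 KO libraries of an organ, the kidney (395 ± 93.7, SD, n = 4) and heart (387 ± 170) thus overlapped, and the small intestine (101 ± 48.9) and liver (138 ± 16.4) overlapped as well. The leading collagen was Col3a1 in the small intestine and heart, Col18a1 in the liver, Col14a1 in the spleen and Col4a3 in the kidney. By mean TPM these ranked 5598, 1760, 1268, 4977 and 1684 among all genes, in that order of organs. Of the 44 genes, 14 had their highest mean level in the spleen, 13 in the heart, 10 in the kidney, 2 in the liver and 5 in the small intestine. A mean of 10 TPM or more in an organ was reached by 15 genes, whereas 13 stayed under 1 TPM in every organ.

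**Figure D1:**
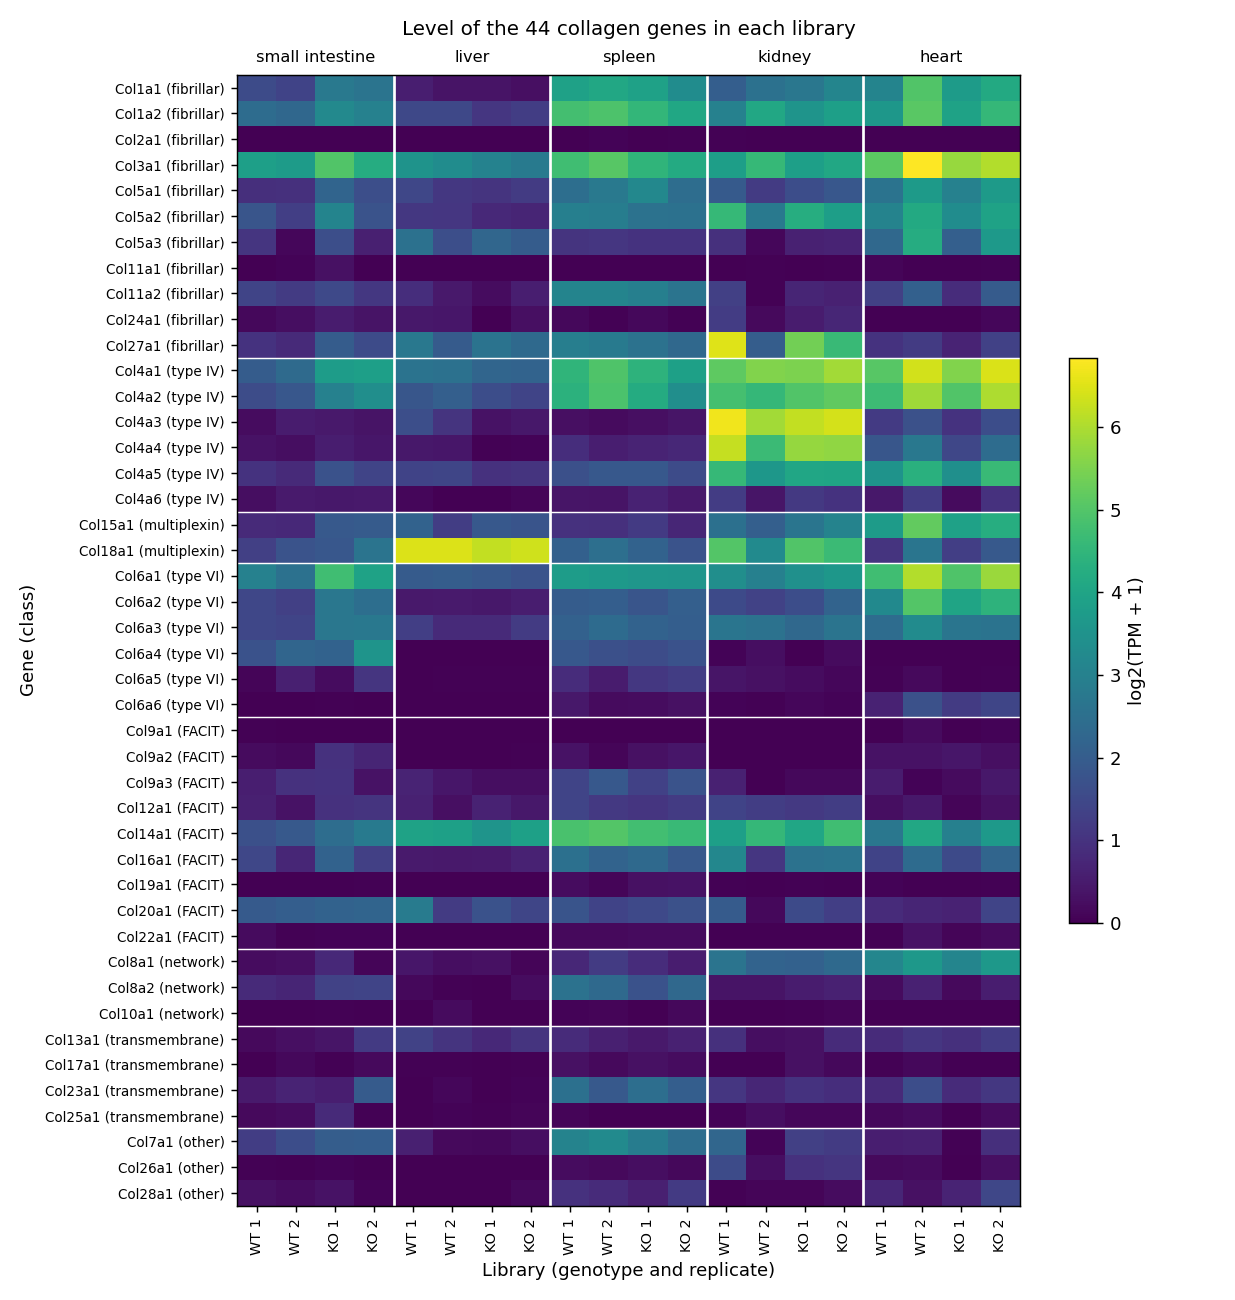
Heat map of log2(TPM + 1) of the 44 collagen genes (rows, grouped by class) in the 20 libraries (columns, grouped by organ). Type IV chains stand out in the kidney, Col18a1 in the liver (73.8 to 88.0 TPM), and fibrillar, type IV and type VI chains in the heart.

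The make-up of the collagen transcripts also varied between organs. Type IV chains made up 56.5 ± 3.10% (SD, n = 4) of the collagen TPM in the kidney, 33.1 ± 4.16% in the heart, 20.5 ± 3.27% in the spleen, 15.1 ± 3.51% in the small intestine and 6.55 ± 1.28% in liver. The multiplexins Col15a1 and Col18a1, which lie in and under basement membranes, made up 61.7 ± 3.07% in the liver and 2.06 to 7.06% on average in the other organs. Fibrillar chains held the largest share in the spleen (40.7 ± 1.44%) and small intestine (38.6 ± 6.65%), which did not differ beyond their spread, followed by the heart (35.1 ± 3.42%), kidney (22.7 ± 4.41%) and liver (14.9 ± 1.84%). Type VI chains reached 24.1 ± 3.55% in the small intestine and 18.3 ± 0.482% in the heart, and FACIT collagens 18 ± 2.04% in the spleen. These shares are descriptions of sums over members and were not tested.

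**Figure D2:**
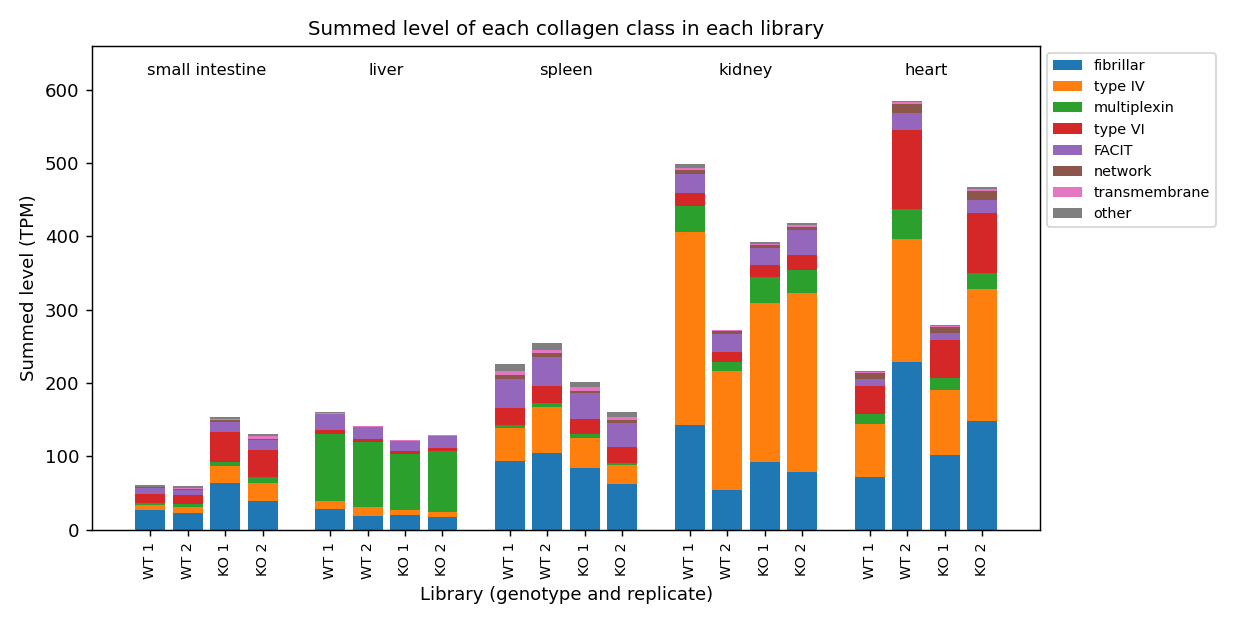
Stacked bars of summed TPM per collagen class (y axis) in each of the 20 libraries (x axis, by organ and genotype). The sums run from 58.8 TPM in small intestine WT replicate 2 to 584 TPM in heart WT replicate 2, and type IV is the largest block in every kidney library.

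To compare single genes between organs, each organ was set against the mean of the other 4 in a fit of all 20 libraries, and a gene was called at an adjusted p under 0.05 (edgeR's quasi-likelihood test, Benjamini-Hochberg over 23159 genes) with a fold change over 2. These 5 comparisons share all libraries. Of the 44 collagens, 40 passed the filter on low counts, and Col2a1, Col11a1, Col9a1 and Col10a1, mostly known as cartilage collagens, did not. In the heart, 20 of the 40 were called higher and 5 lower, against 21.6% and 16.2% of all genes tested. In the kidney, 14 were higher and 3 lower, against 19% and 9.76% of all genes. In the spleen, 15 were higher and 8 lower, against 24% and 16.7%. The liver went the other way, with 4 higher and 20 lower, against 15.8% and 16.8%, and the small intestine had 6 higher and 12 lower, against 23.2% and 14.9%. The median log2 fold change of the 40 collagens was 1.13 in the heart, 0.40 in the kidney, 0.25 in the spleen, -0.30 in the small intestine and -1.82 in liver. The corresponding medians of all genes were -0.15, -0.01, 0.01, -0.02 and -0.26. The collagen median of the spleen changed sign without spleen KO replicate 1 (-0.21) or spleen WT replicate 2 (-0.09), and ran up to 0.38 without liver WT replicate 1. That of the kidney was 0.09 without kidney WT replicate 2, and that of the heart 0.75 without heart KO replicate 2. The small intestine median ran from -0.49 without KO replicate 1 to -0.10 without kidney WT replicate 2. The counts of 6 higher in the small intestine and 3 lower in the kidney moved by over 1.5 times with single libraries. The former was 3 without small intestine WT replicate 2 and 10 without kidney WT replicate 1, and the latter was 5 without kidney WT replicate 1 and 1 without KO replicate 1 or KO replicate 2. The count of 8 lower in the spleen was 5 without spleen WT replicate 1 or KO replicate 2.

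Type IV chains form the network of the basement membrane, and all 6 were called higher in the kidney, against 19% of all genes. The genes lie in head-to-head pairs, in which partners are read in opposite directions, and the start sites of the pairs that lie closest are shown here. On GRCm38, Col4a1 (ENSMUSG00000031502, chr8:11198423-11312826, minus strand) and Col4a2 (chr8:11312805-11449287, plus strand) overlap by 22 bases, and Col4a3 (chr1:82586921-82722059, plus strand) starts 72 bp from Col4a4 (chr1:82448423-82586849, minus strand). Col4a5 and Col4a6 on chromosome X start 1309 bp apart. The first sequence below (RefSeq, GRCm38.p6, plus strand, chr8:11312805-11312826) is the overlap of the first exons of Col4a1 and Col4a2, with a GC box (GGGCGG, searched on both strands) in capitals. The other (minus strand, chr1:82586849-82586921) runs between the annotated ends of Col4a3 and Col4a4, with these 2 start bases in capitals.
Col4a1-Col4a2: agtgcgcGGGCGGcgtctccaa
Col4a3-Col4a4: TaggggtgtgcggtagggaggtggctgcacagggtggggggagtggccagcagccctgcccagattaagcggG
Promoter windows (250 bases before to 50 after a start) were found for 35 collagens, in 38 windows. A GC box was present in 23 of the 38 and in 35.7% of all 32851 windows, CCAAT in 13 of 38 and 37.4%, and TATAAA in 5 of 38 and 13.6% (both strands for each). A match is a description of the letters, not a site.

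Col4a3 had 103, 58.4, 72.7 and 83.2 TPM in the kidney, and at most 2.26 TPM in any library of the other organs. Its partner Col4a4 had 74.3, 24.5, 52.9 and 51.6 TPM in the kidney and up to 5.63 TPM elsewhere. The kidney stood above the other organs without overlap for both, with log2 fold changes of 6.98 ± 0.20 (SE, adjusted p = 1.15e-11, edgeR) and 6.30 ± 0.19 (adjusted p = 1.23e-11). Col4a3 shares 5.65% of its exon bases with C430014B12Rik, so that a part of its reads may be assigned elsewhere. Col4a5, the remaining chain of the adult kidney filter, had 23.1, 11.2, 15.5 and 15.3 TPM in the kidney and 10.5, 19.3, 9.64 and 23.9 TPM in the heart. These ranges overlapped, and the gene was called higher in the kidney (2.28 ± 0.16) and in the heart (2.48 ± 0.16). Col4a6 was scarce, with 1.33, 0.309, 1.21 and 1.0 TPM in the kidney, and its call there (1.63 ± 0.49, adjusted p = 0.0158, edgeR) was lost without kidney WT replicate 1 (1.25) or KO replicate 1 (1.57), while it was 2.30 without liver WT replicate 1.

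The widespread chains Col4a1 and Col4a2 were led by the heart. Col4a1 had 32.5, 82.0, 45.5 and 86.0 TPM in the heart and 34.3, 45.5, 43.8 and 58.2 TPM in the kidney. It had 21.3, 29.9, 20.3 and 13.8 TPM in the spleen, 3.01, 4.14, 12.7 and 13.5 TPM in the small intestine, and 3.53 to 5.05 TPM in the liver. Heart and kidney overlapped, and both exceeded every spleen library. Col4a2 ran from 25 to 63.5 TPM in the heart and from 1.63 to 3.17 TPM in the liver. The log2 fold changes in the heart were 2.23 ± 0.21 for Col4a1 and 2.36 ± 0.20 for Col4a2, and in the kidney 1.55 ± 0.21 and 1.39 ± 0.21, all called by edgeR. The TPM ratio of Col4a1 to Col4a2 lay between 1.18 ± 0.201 (SD, n = 4) in the spleen and 1.87 ± 0.265 in the liver. The ratio of Col4a3 to Col4a1 was 1.84 ± 0.785 in the kidney and averaged 0.0121 to 0.201 in the other organs. Over the 6 chains, 5 were called lower in the small intestine, 5 lower in the liver and 3 lower in the spleen, and 5 were called higher in the heart. Of 8 podocyte markers, 7 were called higher in the kidney, against 19% of all genes. Their sum there was 184, 152, 191 and 165 TPM, against at most 126 TPM in the other organs. In the heart, 4 of the 8 were called higher and 0 lower, against 21.6% and 16.2% of all genes. The part of podocytes in the kidney values was not tested.

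**Figure D3:**
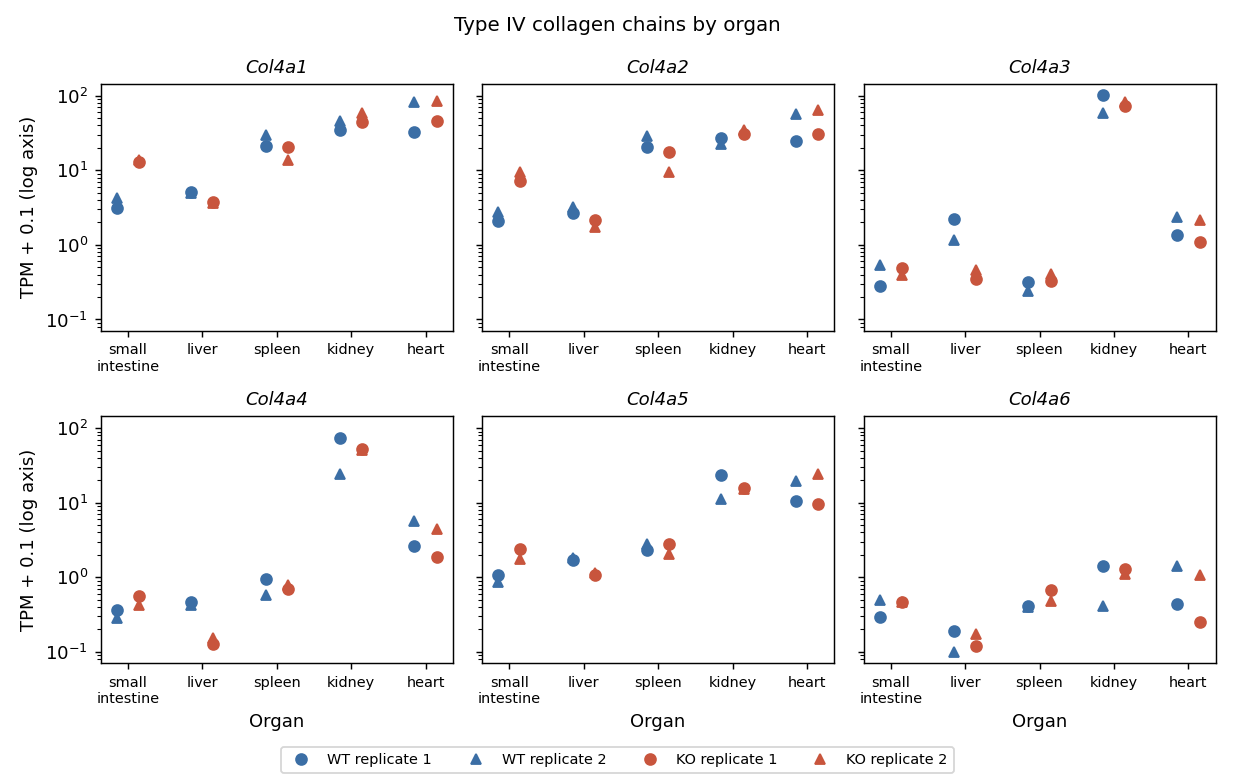
Levels of the 6 type IV chains in each library (TPM + 0.1, log axis), by organ and genotype. Col4a3 and Col4a4 exceed 24 TPM in every kidney library and stay under 6 TPM elsewhere, whereas Col4a1 and Col4a2 are high in both kidney and heart.

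The fibrillar chains Col1a1 and Col1a2, which together build type I collagen, and Col3a1, the single chain of type III collagen, were highest in the heart or spleen. Col1a1 (chr11:94936224-94953042, plus strand) had 7.57, 30.4, 12.6 and 17 TPM in the heart and 14, 16.2, 14.2 and 9.04 TPM in the spleen. It had 3.15, 4.82, 5.60 and 7.64 TPM in the kidney, 1.94, 1.61, 5.80 and 5.19 TPM in the small intestine, and 0.219 to 0.477 TPM in the liver. Heart and spleen overlapped, as did kidney and small intestine, while the liver lay under every other library. The log2 fold change was 2.55 ± 0.24 in the heart (adjusted p = 5.94e-07, edgeR), 1.42 ± 0.25 in the spleen and -3.82 ± 0.37 in the liver, and the heart value was 1.88 without heart WT replicate 2. Col1a2 had 26.7, 29.4, 21.9 and 15.9 TPM in the spleen and 11.2, 32.8, 14.3 and 22.6 TPM in the heart, where the ranges overlapped. It was called higher in the heart (1.53 ± 0.24, adjusted p = 0.000106, edgeR) and lower in the liver (-2.33 ± 0.32). Its call in the spleen (1.07 ± 0.25, adjusted p = 0.00219, edgeR) lay near the fold threshold and was lost without spleen KO replicate 1 (0.92) or kidney WT replicate 1 (0.97). Col3a1 had 33.9, 114, 54.4 and 65 TPM in the heart against 6.03 to 32.6 TPM in all other libraries, so that the groups did not overlap, with a log2 fold change of 2.12 ± 0.23 (adjusted p = 1.98e-06, edgeR).

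The ratio of fibrillar chains also varied. Per TPM, Col1a1 stood at 0.808 ± 0.116 (SD, n = 4) of Col1a2 in the heart, 0.575 ± 0.170 in the small intestine, 0.572 ± 0.0529 in the spleen, 0.211 ± 0.0560 in the liver and 0.460 ± 0.120 in the kidney. Col3a1 exceeded Col1a1 in every organ, by 1.82 ± 0.218 times in the spleen and 26.3 ± 3.92 times in the liver. These ratios were not tested.

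Minor fibrillar chains had other leading organs. Col5a2, a type V chain that is built into type I fibrils, had 22.8, 5.78, 18.1 and 13.3 TPM in the kidney and 7.35, 16.9, 9.08 and 14.5 TPM in the heart. The ranges overlapped, and both organs were called higher (1.74 ± 0.23 and 1.67 ± 0.23). Col5a3 had 4.0, 17.9, 3.24 and 11.9 TPM in the heart and 4.91, 2.13, 3.78 and 2.99 TPM in the liver, with calls in both (3.01 ± 0.44 and 2.13 ± 0.45). The heart value of Col5a3 was 2.30 without heart WT replicate 2. Col27a1, a fibrillar chain known from cartilage, ranged widely among replicates, with 89.9, 3.07, 40.9 and 23.8 TPM in the kidney and at most 6.62 TPM elsewhere. The kidney library that stood apart in Slc34a1 held the lowest of these values, within the range of the other organs. Its log2 fold change was 3.61 ± 0.37 (adjusted p = 2.99e-06, edgeR) and 2.04 without kidney WT replicate 1. Col11a2 was led by the spleen, with 7.56, 7.56, 6.78 and 5.21 TPM against at most 3.26 TPM elsewhere (2.15 ± 0.42). Of the 9 fibrillar chains tested, 6 were higher and 2 lower in the heart, 3 higher and 1 lower in the spleen, 3 higher and 2 lower in the kidney, 1 higher and 3 lower in the liver, and 2 lower in the small intestine. The shares of all genes called higher were 21.6% (heart), 24% (spleen), 19% (kidney), 15.8% (liver) and 23.2% (small intestine). Those called lower were 16.2%, 16.7%, 9.76%, 16.8% and 14.9%, in this order. Col5a1, the main partner of Col5a2, was higher in the heart (2.04 ± 0.19) and lower in the small intestine (-1.06 ± 0.24). Col24a1 was called higher in the kidney (2.81 ± 0.70) and lower in the heart (-4.58 ± 1.33) at levels of at most 1.31 TPM. With 0, 0, 0 and 10 counts in the heart, its fitted value there depends on the prior count and is no bound.

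Type VI chains, whose filaments tie cells to the matrix, had their highest mean TPM in the heart in 4 of 6 cases. Col6a1 had 25.7, 66.0, 30.4 and 55.1 TPM in the heart and 7.05, 4.84, 25.9 and 14.5 TPM in the small intestine. It had 12.7, 12, 11.1 and 10.9 TPM in the spleen, 6.88 to 11.4 TPM in the kidney and 2.36 to 3.07 TPM in the liver. The lowest heart library fell just under the highest small intestine library, KO replicate 1. Col6a1 was higher in the heart by 2.56 ± 0.16 (adjusted p = 6.70e-09, edgeR), Col6a2 by 3.53 ± 0.20 and Col6a3 by 1.16 ± 0.19. Col6a3 had 4.39, 8.78, 5.35 and 5.11 TPM in the heart. These overlapped with 3.98 to 5.36 TPM in the kidney and 1.65 to 5.66 TPM in the small intestine. Without heart WT replicate 2 the value for Col6a2 was 2.90. Col6a6 was scarce, with 0.571, 2.25, 1.30 and 1.72 TPM in the heart, at most 0.367 TPM in the spleen and at most 0.0889 TPM in the other organs (5.52 ± 0.49 in the heart).

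Col6a4 was the collagen with the highest fold change in the small intestine. It had 2.31, 3.73, 3.47 and 10.7 TPM there, 2.66, 2.21, 2.03 and 2.29 TPM in the spleen, and at most 0.193 TPM in the kidney, heart and liver. Small intestine and spleen overlapped, and both were called higher (7.09 ± 0.60, adjusted p = 6.93e-07, and 5.01 ± 0.63, edgeR). Since several libraries of the other organs had no count, these fitted values depend on the prior count and are not bounds. The small intestine value was 6.47 without small intestine KO replicate 2 and 7.81 without kidney KO replicate 2. Col6a5 was called higher in the same 2 organs (2.11 ± 0.59 and 2.56 ± 0.57), at no more than 1.38 TPM.

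The multiplexins split between liver and heart. Col18a1, whose C-terminal end is released as endostatin, had 88.0, 87.9, 73.8 and 80.3 TPM in the liver and 31.0, 8.74, 30.7 and 24.2 TPM in the kidney. In the small intestine, spleen and heart it had 1.06 to 5.27 TPM. The liver exceeded every other library, with a log2 fold change of 4.95 ± 0.27 (adjusted p = 3.18e-09, edgeR), and the kidney was also called higher (1.52 ± 0.29). Col15a1 had 12.5, 35.5, 14 and 18.2 TPM in the heart and at most 7.27 TPM elsewhere, and was higher in the heart by 3.31 ± 0.20 (adjusted p = 6.70e-09, edgeR).

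FACIT collagens sit on the surface of fibrils, and the most abundant of them was Col14a1. It had 28.6, 31.1, 26.4 and 23.8 TPM in the spleen, 13.6, 22.4, 15.6 and 25.8 TPM in the kidney, 10.7 to 14.3 TPM in the liver, 5.59 to 16.3 TPM in the heart and 2.20 to 5.92 TPM in the small intestine. Spleen and kidney overlapped. In the fit, which scales libraries by TMM and not by TPM, the highest value was that of the liver (0.98 ± 0.25), followed by the spleen (0.77 ± 0.25) and kidney (0.72 ± 0.25), so that the order differed from that of TPM, and none of the 3 reached the fold threshold. Col14a1 was called lower in the small intestine (-2.14 ± 0.31). Col19a1 had the highest fold change of the class in the spleen (4.09 ± 0.82, adjusted p = 0.00123, edgeR), at 0.166, 0.0595, 0.239 and 0.264 TPM. At such levels, with no count in most other libraries, the fitted value is no bound. Of the 8 FACIT collagens tested, 4 were higher in the spleen, 2 each in the small intestine, kidney and heart, and 1 in the liver. Lower calls numbered 1 each in the small intestine, liver, kidney and heart, and 0 in the spleen. The shares of all genes called higher were 24% (spleen), 23.2% (small intestine), 19% (kidney), 21.6% (heart) and 15.8% (liver). Those called lower were 16.7%, 14.9%, 9.76%, 16.2% and 16.8%, in this order. The higher calls were Col9a2, Col9a3, Col19a1 and Col22a1 in the spleen, Col9a2 and Col22a1 in the small intestine and heart, Col12a1 and Col16a1 in the kidney, and Col20a1 in the liver. Col9a2 and Col22a1 had at most 29 and 30 counts in any library and none in the kidney, so their fitted values are no bounds. The lower calls were Col14a1 in the small intestine, Col16a1 in the liver (-1.90 ± 0.39), Col9a3 in the kidney (-2.08 ± 0.74) and Col12a1 in the heart (-2.04 ± 0.33). Apart from Col14a1, no FACIT collagen exceeded 7.90 TPM in any library.

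Among the remaining classes, Col8a1, a network-forming chain of vessel walls and of the cornea, had 7.87, 11.6, 7.71 and 11.5 TPM in the heart, above 5.18, 3.50, 3.33 and 4.10 TPM in the kidney and at most 1.30 TPM elsewhere. Its log2 fold change was 3.96 ± 0.32 in the heart (adjusted p = 1.19e-07, edgeR) and 2.12 ± 0.33 in the kidney. The transmembrane collagen Col23a1 was led by the spleen (4.76, 2.79, 4.57 and 3.11 TPM, log2 fold change 2.42 ± 0.45), which overlapped with small intestine KO replicate 2 (2.90 TPM). The value of Col23a1 was 3.16 without liver WT replicate 2. Col7a1, the anchoring fibril collagen, had 7.42, 8.62, 6.38 and 4.45 TPM in the spleen and at most 3.80 TPM elsewhere (2.41 ± 0.54). Col26a1 had 1.96, 0.190, 0.984 and 1.09 TPM in the kidney, where the lowest value overlapped with the spleen and heart. Its log2 fold change was 4.65 ± 0.62 (adjusted p = 4.47e-05, edgeR), 3.76 without kidney WT replicate 1 and 5.39 without heart KO replicate 2. Col8a2, the partner of Col8a1, was higher in the spleen (2.86 ± 0.41) and small intestine (1.30 ± 0.45), with 4.95, 4.04, 2.29 and 4.01 TPM in the spleen, and Col17a1 was called in the spleen at under 0.25 TPM. Of the other members, Col13a1 was called higher in the liver, Col25a1 in the small intestine, and Col28a1 in the heart and spleen, at no more than 1.76 TPM.

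The genes that make, bind and break down collagen followed a partly different order of organs. The counts for these and the following lists stand against the shares of all genes called higher and lower given above (heart 21.6% and 16.2%, kidney 19% and 9.76%, liver 15.8% and 16.8%, small intestine 23.2% and 14.9%, spleen 24% and 16.7%). Of 22 genes for folding and secretion of collagen, 12 were called higher and 1 lower in the heart, 7 and 2 in the kidney, 7 and 6 in the liver, 3 and 13 in the small intestine, and 3 and 8 in the spleen. Serpinh1, the collagen chaperone HSP47, was higher in the heart by 2.72 ± 0.17, and the lysyl hydroxylase gene Plod2 was higher in the heart and kidney (2.08 and 2.07). P4hb, which serves many proteins besides collagen as a disulfide isomerase, and the transport genes Sec23a and Sec24d were the 3 called higher in the small intestine. P3h2, a prolyl 3-hydroxylase known to act on type IV collagen, was higher in the kidney by 6.85. Of 13 genes for processing and crosslinking, 9 were higher and 0 lower in the heart, 6 and 1 in the kidney, 4 and 3 in the spleen, 2 and 4 in the liver, and 1 and 8 in the small intestine. They included the lysyl oxidase family gene Loxl1 (3.03 in the heart, 1.47 in the kidney) and the protease enhancer gene Pcolce (1.76 and 1.72).

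Of 12 collagen receptor genes, 6 were higher and 1 lower in the heart, 4 and 2 in the kidney, 0 and 7 in the liver, 4 and 2 in the small intestine, and 5 and 0 in the spleen. Gp6, the collagen receptor of platelets, was higher in the spleen by 6.64, and the discoidin receptor Ddr1 was higher in the kidney (2.26) and small intestine (2.19). Among 12 tested genes of 14 for collagen breakdown and its inhibitors, 7 were higher and 1 lower in the heart, 3 and 2 in the kidney, 1 and 8 in the liver, 2 and 3 in the small intestine, and 5 and 3 in the spleen. Mmp7, a protease of Paneth cells, was higher in the small intestine by 8.02, and the inhibitor gene Timp3 in the kidney by 5.38.

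Partners of type IV collagen were also called higher most often in the heart and kidney. Of 16 basement membrane partners (laminins, nidogens, Hspg2, Agrn and Pxdn), 11 were higher and 1 lower in the heart, 9 and 1 in the kidney, 1 and 9 in the liver, 4 and 8 in the small intestine, and 0 and 7 in the spleen. Lamb2 was higher by 4.23 in the heart and Lama5 by 3.18 in the heart and 2.64 in the kidney. Of 16 fibril partners, 14 were higher and 2 lower in the heart, 2 and 5 in the kidney, 2 and 9 in the liver, 2 and 10 in the small intestine, and 4 and 5 in the spleen. The proteoglycan gene Dcn was higher in the heart by 3.10, and fibronectin (Fn1), which hepatocytes secrete into plasma, in the liver by 4.73.

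Markers of matrix-producing cells also differed between organs. Of 12 fibroblast markers, 12 were higher and 0 lower in the heart, 2 and 4 in the kidney, 0 and 11 in the liver, 1 and 3 in the small intestine, and 5 and 0 in the spleen. Their sums were 1235 to 2416 TPM in the heart, 470 to 613 in the spleen, 93.3 to 158 in the kidney, 74.7 to 229 in the small intestine and 15.4 to 20.2 in the liver. Single genes made up much of these sums, with Lsp1 at a mean of 222 TPM in the spleen and Gsn at 1055 TPM in the heart. Which cells carried these transcripts was not tested, so the sums are not measures of fibroblast content. All 10 endothelial markers were higher in the heart and lower in the small intestine. Pericyte and stellate cell markers were higher in the heart in 6 of 9 cases, and 13 of 15 smooth muscle genes were higher in the small intestine and 12 lower in the liver. Of 10 cartilage and bone genes, 6 were tested and all 10 summed to at most 20.9 TPM in any library, and of 6 mesothelial genes, 5 were higher in the small intestine and 6 lower in the liver. All 8 enterocyte markers were higher in the small intestine, all 6 hepatocyte markers in the liver, and in the heart all 8 heart muscle genes, 3 of 6 adipocyte genes and 5 of 6 airway and lung genes. The part of these cell types in the collagen levels was not tested.

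Small intestine libraries differed in the levels of muscle genes. The 15 smooth muscle genes, of which Myl9 was the most abundant and none was at 0, summed to 568 and 685 TPM in WT and 4240 and 1957 TPM in KO. The smooth muscle myosin gene Myh11 had 26.5, 25.6, 156 and 98.8 TPM, Des 53.2, 65.1, 544 and 186 TPM, and Actg2 86.9, 113, 1178 and 348 TPM. Acta2 had 70.3, 118, 373 and 432 TPM. Both KO libraries thus exceeded both WT libraries in each. KO replicate 1 was the highest except for Acta2, which was highest in KO replicate 2. Over the means, the smooth muscle sum was 4.95 times and the collagen sum 2.40 times that of WT. The ratio of the collagen sum to the smooth muscle sum was 0.106 and 0.0858 in WT and 0.0364 and 0.0668 in KO, lower in both KO libraries. KO replicate 1, which had the highest smooth muscle sum, held the highest value of 19 of the 35 collagens tested in this organ. Of all tested genes, 41.6% had their highest value there. KO replicate 2 held the highest value of 14 of the 35, against 18.6% of all tested genes. The lowest value of 30 of the 35 was in a WT library, against 59.7% of all tested genes.

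**Figure D4:**
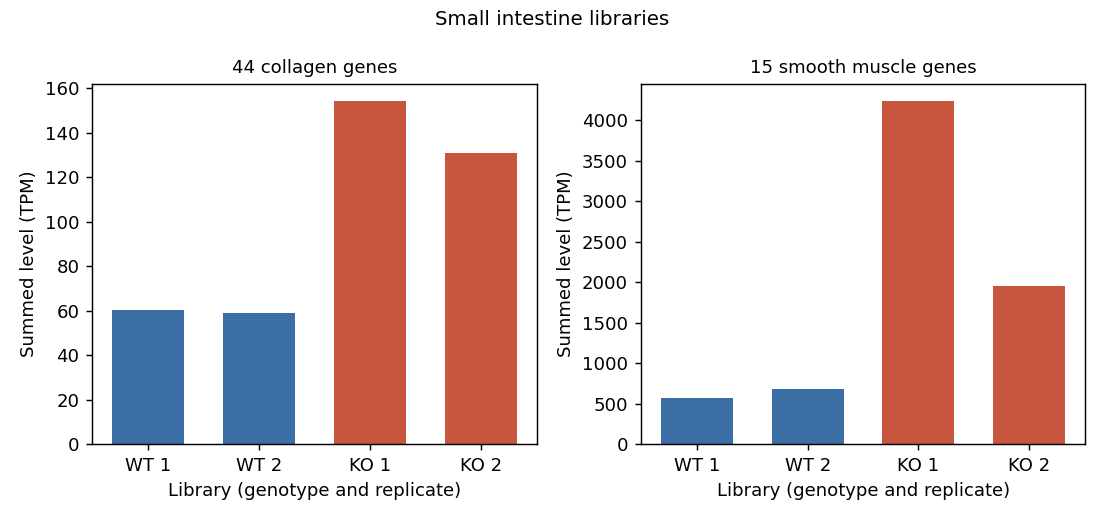
Summed TPM of the 44 collagens and of the 15 smooth muscle genes in the 4 small intestine libraries (bars, y axes start at 0). The smooth muscle sum is 568 and 685 TPM in WT and 4240 and 1957 TPM in KO, and the collagen sum 60.3 and 58.8 against 154 and 131 TPM.

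To see whether loss of Nsun6 changed collagen expression, KO was set against WT within each organ, with a call at a fold change over 2 and an adjusted p under 0.1. In the small intestine, 31 of the 35 collagens tested had a higher fitted level in KO, against 50.4% of all genes, with a median log2 fold change of 1.09 against 0.00 for all genes. None passed the test (edgeR, 0 of 35, and 0% of all 17680 genes), and DESeq2 called none either, against 0.178% of all genes by DESeq2. At an unadjusted p under 0.05 there were 11 collagens, all higher in KO, against 2.39% of all genes in either direction. That count was 2 without WT replicate 1 (against 1.20% of all genes in the same fit), 5 without WT replicate 2 (2.34%), 10 without KO replicate 1 (1.35%) and 3 without KO replicate 2 (4.37%), whereas the median stayed between 1.04 and 1.31. Both KO libraries lay above both WT libraries for 21 of the 35, against 13.6% of all genes, and below them for 0, against 11.6%. Col6a1 had 7.05 and 4.84 TPM in WT and 25.9 and 14.5 TPM in KO, with a log2 fold change of 1.63 ± 0.34 (adjusted p = 1.0, edgeR). Col4a1 had 3.01 and 4.14 against 12.7 and 13.5 TPM (1.73 ± 0.42, adjusted p = 1.0, edgeR), and Col1a1 1.94 and 1.61 against 5.80 and 5.19 TPM (1.52 ± 0.38, adjusted p = 1.0, edgeR). The genotypes did not overlap for these 3 genes, but the spread between replicates of this organ over all genes was the widest of the 5 (a biological coefficient of variation of 0.602 against 0.238 to 0.457). Col3a1 had 13.6 and 12.6 against 30.5 and 17.8 TPM (0.73 ± 0.30), and Col28a1 0.232 and 0.176 against 0.257 and 0.0393 TPM (-0.67 ± 1.10).

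The other genes with an unadjusted p under 0.05 in this organ were Col1a2, Col5a1, Col27a1, Col4a2, Col15a1, Col6a2, Col6a3 and Col9a2, with log2 fold changes between 0.77 (Col1a2) and 2.42 (Col9a2). All 15 smooth muscle genes (median 2.11), all 10 endothelial markers (1.19), all 9 pericyte and stellate markers (0.83), all 16 fibril partners (1.14) and all 14 basement membrane partners tested (0.71) also had higher fitted levels in KO, none of them called. Of 22 folding and secretion genes 19 did (0.46), of 10 fibroblast markers 6 (0.32), and of 8 enterocyte markers 6 (0.18). In the same organ 9 of 10 processing genes (0.69), 9 of 12 receptors (0.31) and 7 of 9 breakdown genes (0.83) had higher values in KO, again with none called. The heart muscle list had the largest median of all lists (4.85, 5 of 6 higher), ahead of smooth muscle. Its sum was 44.6 and 32.8 TPM in WT and 524 and 32.6 TPM in KO, so that the excess lay in KO replicate 1 alone. The endothelial sum was at most 15.9 TPM in WT, and 17.8 and 50.2 TPM in KO replicates 1 and 2. Most of the endothelial excess thus lay in KO replicate 2. Of the other lists, all 6 podocyte markers tested (0.44) and 4 of 6 mesothelial genes (0.73) were higher, and 4 of 5 hepatocyte markers (-1.35) and 4 of 5 adipocyte genes (-0.58) were lower, again without a call. The part of muscle and other cell types in the collagen values was not tested.

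In the liver, 7 of 27 collagens tested were higher in KO, against 50.6% of all genes, with a median of -0.36 against 0.00 for all genes. With 1 library left out, the median was -0.18 without KO replicate 1 (12 of 29 higher), -0.26 without KO replicate 2 (8 of 27), -0.22 without WT replicate 1 (11 of 29) and -0.14 without WT replicate 2 (9 of 29). None was called by edgeR, against 0.0509% of all genes (8 genes), and 2 had an unadjusted p under 0.05, against 4.7% (9 of 29 without WT replicate 1 and 5 of 29 without WT replicate 2, where 11.6% and 11.8% of all genes did). These were Col4a3, with 2.12 and 1.05 TPM in WT and 0.254 and 0.360 TPM in KO, and Col4a4, with 0.362 and 0.332 against 0.0281 and 0.0520 TPM. Their log2 fold changes were -2.12 ± 0.37 (adjusted p = 0.344, edgeR) and -2.88 ± 0.63 (adjusted p = 0.687, edgeR), without overlap between genotypes. Col4a3 was called by DESeq2 (adjusted p = 0.00192), by edgeR with no filter on low counts (6.68e-05), and by edgeR without WT replicate 1 (0.0709) or WT replicate 2 (0.0132). Col4a4 was called with no filter (0.0205), and Col20a1 without WT replicate 2 (-1.23). Of all genes, 0.207% were called by DESeq2, 0.477% with no filter, 1.25% without WT replicate 1 and 1.16% without WT replicate 2. In a fit with 1 WT library the spread comes from the KO pair alone, and the WT library is assumed to vary like it. For 11 of the 27, both KO values lay below both WT values, against 16.1% of all genes, and for 1 above them, against 17.2%. WT replicate 1 held the highest value of 21 of the 27 and of 65.3% of all genes tested. It also had 22.5 TPM over 8 heart muscle genes, against 1.61 to 2.92 TPM in the other liver libraries, and their part in these values was not tested. Without that replicate, Col4a3 was still lower (-1.80). The main chains had log2 fold changes of -0.40 ± 0.54 (Col1a1), -0.37 ± 0.19 (Col3a1), -0.28 ± 0.22 (Col4a1) and -0.06 ± 0.31 (Col6a1), and the value of Col18a1 was -0.02 ± 0.22. The smallest p among those higher belonged to Col27a1, with 5.69 and 2.88 against 5.04 and 4.04 TPM (0.32 ± 0.24). Fitted levels in KO were lower for all 4 heart muscle genes tested (median -3.38), all 4 mesothelial genes (-0.47), 6 of 7 fibroblast markers (-0.14) and 5 of 6 podocyte markers (-0.57), none called, and their part was not tested.

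In the spleen, 16 of 37 collagens were higher in KO, against 51.3% of all genes, and the median was -0.01 (-0.11 without KO replicate 1). None was called by edgeR or DESeq2, against 0.223% of all genes by edgeR and 0.697% by DESeq2, and 1 had an unadjusted p under 0.05, against 5.14%, a count that was 8 without KO replicate 1 (against 10.7% of all genes in the same fit), 4 without WT replicate 1 (5.76%) and 0 without WT replicate 2 (5.06%). It was Col6a5, with 0.828 and 0.446 TPM in WT and 1.14 and 1.38 TPM in KO (1.14 ± 0.41, adjusted p = 0.779, edgeR), without overlap. Col3a1 had 26 and 32.6 against 21.4 and 17 TPM (-0.46 ± 0.20, adjusted p = 0.980, edgeR), and Col1a1, Col4a1 and Col6a1 had -0.23 ± 0.24, -0.44 ± 0.26 and -0.01 ± 0.19. Fitted levels in KO were lower for all 10 endothelial (median -0.37), all 6 hepatocyte (-3.45), 6 of 7 podocyte (-0.27) and 12 of 14 smooth muscle genes tested (-0.25), and higher for all 6 adipocyte (1.65) and all 6 mesothelial genes (0.34), none called. Spleen WT replicate 2 was the library high in Alb. The part of these cell types was not tested. KO replicate 2 held the lowest value of 20 of the 37 collagens and of 38.9% of all genes.

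In the kidney, 19 of 33 collagens were higher in KO, against 47% of all genes, with a median of 0.10 (0.43 without WT replicate 1 and 0.34 with a replicate block). None was called by edgeR or DESeq2 (0% of all genes by either), and 0 had an unadjusted p under 0.05 in edgeR and 1 in DESeq2, against 0.638% of all genes by edgeR and 0.473% by DESeq2. The number of calls moved with the WT libraries, which lay at opposite ends. WT replicate 1 held the highest value of 21 and WT replicate 2 the lowest of 22 of the 33 collagens, and of 60.2% and 59.2% of all genes. Without WT replicate 1, 11 collagens were called, against 16.1% of all genes, of which 10 were higher in KO (for example Col27a1 by 3.01 and Col7a1 by 4.26) and Col3a1 lower (-1.01). Without WT replicate 2, 3 were called, against 2.37% of all genes, with Col1a1 (1.43) and Col1a2 (1.11) higher and Col27a1 lower (-1.12). These fits set 1 WT library against the KO pair, which alone gives the spread. Col27a1 took opposite signs with the WT library used, at 89.9 and 3.07 TPM in WT and 40.9 and 23.8 TPM in KO. In all 4 libraries Col15a1 had 4.74 and 3.18 against 5.30 and 7.27 TPM (0.66 ± 0.40), Col6a5 0.310 and 0.233 against 0.162 and 0.0870 TPM (-1.14 ± 0.73), and Col4a3 103 and 58.4 against 72.7 and 83.2 TPM (-0.02 ± 0.33). Col1a1, Col3a1, Col4a1 and Col6a1 had 0.59 ± 0.56, -0.45 ± 0.53, 0.23 ± 0.46 and 0.37 ± 0.37. Fitted levels in KO were higher for 9 of 10 endothelial markers (median 0.33) and 18 of 21 folding and secretion genes (0.24), and lower for all 5 adipocyte genes tested (-1.88), 4 of 5 mesothelial genes (-0.66) and 4 of 6 hepatocyte markers (-0.70), none called. Their part in the collagen values was not tested.

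In the heart, 9 of 34 collagens were higher in KO, against 48.2% of all genes, with a median of -0.21 against -0.01 for all genes. This direction rested on single libraries, since 27 of 33 were higher without WT replicate 2 (median 0.42) and 21 of 36 without KO replicate 1 (0.06). It was 5 of 36 without WT replicate 1 (-0.49) and 7 of 33 without KO replicate 2 (-0.30). None was called by edgeR or DESeq2 (0% of all genes by edgeR and 0.0107% by DESeq2) and 0 had an unadjusted p under 0.05 by edgeR, against 0.703% of all genes (4 without WT replicate 1 and 3 without KO replicate 2, against 1.78% and 2.76% in those fits). Replicate 2 was above replicate 1 in both genotypes for 30 of the 34, and for 67.1% of all genes. Col12a1, a FACIT collagen, had 0.190 and 0.356 against 0.0595 and 0.227 TPM (-0.97 ± 0.69), and Col28a1 0.674 and 0.237 against 0.616 and 1.76 TPM (1.27 ± 0.77). Genotypes overlapped for both. Col1a1, Col3a1, Col4a1 and Col6a1 had -0.28 ± 0.49, -0.21 ± 0.46, 0.21 ± 0.37 and -0.08 ± 0.36, and all except Col4a1 took the opposite sign without heart WT replicate 2 (0.79, 0.66 and 0.51). Fitted levels in KO were lower for all 6 mesothelial genes (median -1.50), 5 of 6 adipocyte genes (-1.49), all 5 airway and lung genes tested (-1.23) and 3 of 4 hepatocyte markers (-0.73), none called, and the median of the 12 fibroblast markers was 0.08. The part of these cell types was not tested.

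**Figure D5:**
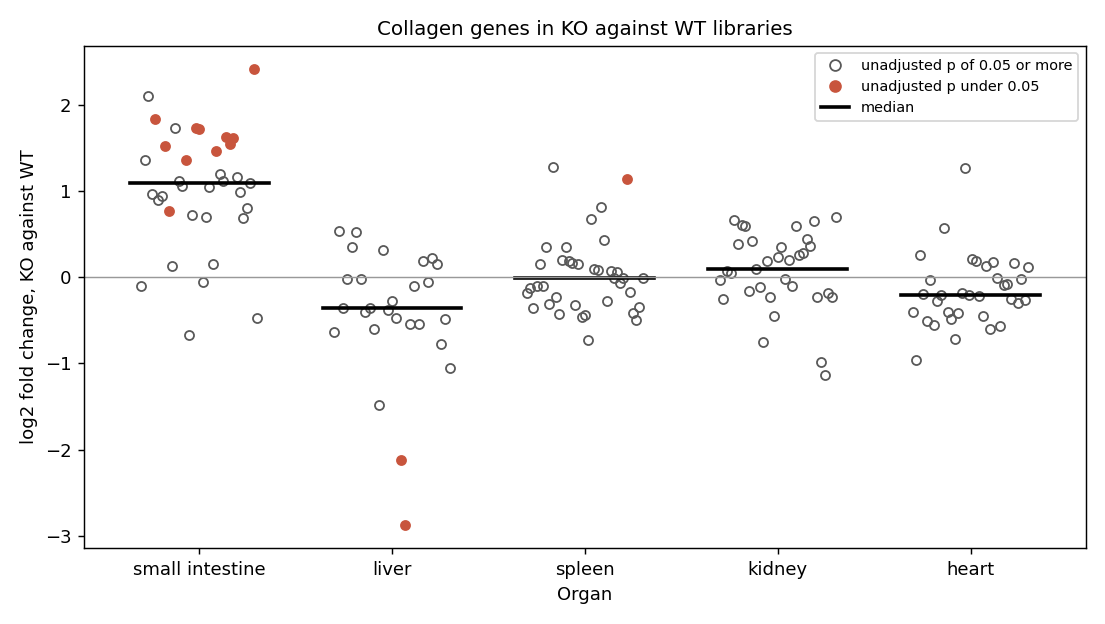
Log2 fold change of KO against WT (y axis) of each collagen tested, by organ (x axis), with the median as a bar. Filled points have an unadjusted p under 0.05 (11 for the small intestine, 2 for the liver, 1 for the spleen and none for kidney or heart), and no collagen passed the adjusted threshold.

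Averaged over the 5 organs, no collagen was called for a shared effect of KO (adjusted p under 0.1, edgeR, 0.00432% of all 23159 genes, or 1 gene), nor by DESeq2 (0.0109% of all genes). Col5a1 (0.45 ± 0.20), Col9a2 (1.25 ± 0.56) and Col6a2 (0.49 ± 0.22) had an unadjusted p under 0.05, against 2.28% of all genes, a count that was 0 without any single small intestine library or liver KO replicate 2 and at most 4 without any other library. In the test of whether the effect of KO differs between organs, none was called (0% of all genes), and 9 of the 40 had an unadjusted p under 0.05, against 2.31% of all genes (5 without small intestine WT replicate 1, WT replicate 2 or KO replicate 2, against 2.17%, 3.18% and 3.92% in those fits, and 16 without kidney WT replicate 1, against 7.18%). They were Col4a1 to Col4a5, Col6a1, Col6a3, Col15a1 and Col17a1, and Col4a4 had the smallest p, with an adjusted p of 1.0 (edgeR, Benjamini-Hochberg over all genes). With no filter on low counts, Col4a1, Col4a2, Col4a3 and Col4a4 were called for a difference between organs, against 2.66% of all genes, and without kidney WT replicate 1, Col27a1 and Col4a4 were, against 0.287%.

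Across the 20 libraries, the chains that are built into one protein were close in their log2 CPM. Col1a1 had a Pearson r of 0.966 with Col1a2, Col4a1 of 0.982 with Col4a2, Col6a1 of 0.981 with Col6a2, and Col4a3 of 0.888 with Col4a4. Of all genes outside the collagens, Slit3 (0.962), Cavin3 (0.958) and Tuba1a (0.956) were closest to Col1a1, and Pdgfra (0.940), Trim47 (0.939) and Ctsk (0.938) to Col4a1. Wdr72 (0.954), Dab2 (0.951) and Gm42397 (0.950) were closest to Col4a3, and Eml1 (0.967), Filip1 (0.960) and Scube2 (0.957) to Col6a1. These values describe 20 libraries, 4 from each of 5 organs, which also differ in depth and tissue make-up, and carry no test.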

How the data were processed

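The authors trimmed the read pairs with cutadapt, mapped them with HISAT2 2.1.0 and counted them on exons with featureCounts 2.0.1, and they deposited raw counts of 55401 Ensembl genes with no normalization (GRCm38, mm10), together with other annotation columns such as the merged exon length, from which TPM was computed here. The methods state counting by strand and proper pairs, but neither option stands in the command that the count table records. Antisense and overlapping reads may therefore be mixed, and 13 collagens share exon bases with another gene. Total counts ranged from 15897446 to 44508197 and collagen counts from 5565 to 59182 per library. The spread between libraries limits the precision, as does counting error for collagens of low count, such as Col4a4 in the KO liver (4 and 10 counts) and Col19a1 in the spleen (4 to 21 counts). Libraries were grouped by tissue, genotype and replicate number of the labels.

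edgeR 4.0.16 (R 4.3.3, limma 3.58.1) was run on all genes with TMM normalization, filterByExpr and the robust quasi-likelihood test, and adjusted p-values are Benjamini-Hochberg over all genes tested. Fits covered 20 libraries between organs, for the shared KO effect and for the interaction of organ and genotype, and 4 libraries for KO against WT within an organ. A standard error is the size of the fitted log2 value over the root of its F statistic. The fits were tested on simulated counts, but no outcome of that is given here and no value above rests on it. The methods name DESeq2, which was run as an alternative (1.42.0), besides RLE size factors, no filter, WT libraries only, no fold threshold, a block for the replicate number, 1 fit of all libraries, and each library left out. Collagens named between organs reached 10 TPM on average in an organ or had the largest fold change of their class, and those named for KO were the main chains and the smallest p in each direction. Further genes with values (Nsun6, organ markers, list genes, and other members given to account for every gene) were chosen after their values were seen. The collagen classes, the members and the 18 gene lists were chosen with earlier results of these data known. Sequences are from RefSeq (GRCm38.p6). Protein sequences were not used here.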

Additional observations from a re-analysis of the deposited data

Results flagged for a closer look

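Among 27 groups of 4 libraries examined (the named collagens in their leading organ and the summed collagen level of each organ), 1 library lay far from the other 3. Col6a4 had 10.7 TPM in small intestine KO replicate 2, against 2.31, 3.73 and 3.47 TPM in the others. Its gap to the nearest library was 0.832 of the whole range, just over Dixon's critical value for 4 samples. Chance flags about 1 in 20 such groups.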

How the results depend on the processing

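Between organs, the number of collagens called higher in the small intestine (6) became 10 with no filter and 1 with WT libraries only, and ranged from 3 to 10 when single libraries were left out. In the spleen, WT libraries alone gave 8 higher (15) and 5 lower (8), and leaving out libraries gave 5 to 9 lower. The count of lower calls in the kidney (3) was 0 with WT libraries only, 6 with DESeq2 and 1 to 5 with libraries left out, and in the heart (5) it was 2 with WT libraries only and 8 with DESeq2. The cause was not tested, except that WT libraries alone are fewer. Of the named genes, Col1a2 in the spleen and Col4a6 in the kidney (1.46 with WT only) lost their calls in 5 settings.

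In KO against WT, the 0 calls in the liver became 2 with no filter, 1 with DESeq2 and 0 to 2 with libraries left out, those in the kidney 0 to 11, and those for a KO effect that differs between organs 4 with no filter and 0 to 2 with libraries left out. With single libraries left out, these log2 fold changes crossed 0. Col28a1 in the small intestine ranged from -2.24 to 0.018. Col6a1 in the liver ranged from -0.302 to 0.224 (0.0477 without KO replicate 2), and Col1a1 in the spleen from -0.602 to 0.0522. In the kidney, Col3a1 ranged from -1.01 to 0.512 and Col4a1 from -0.229 to 0.93. In the heart, Col1a1 ranged from -0.846 to 0.786, Col3a1 from -0.719 to 0.655, Col4a1 from -0.173 to 0.792 and Col6a1 from -0.475 to 0.512 (0.075 without KO replicate 1). None of these was called with all 4 libraries of the organ.

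The replicate numbers are shared by WT and KO, but with 2 pairs per organ nothing shows that they pair animals. The column names of heart WT replicate 2 and heart KO replicate 2 hold the mark pre, which no other library has. Its meaning is not stated. Across genes, the replicate differences of WT and KO correlated with r = 0.248 in the heart, 0.073 in the kidney, 0.0261 in the liver, 0.0121 in the spleen and 0.481 in the small intestine. A replicate block gave 0 collagens called in KO in every organ. Between organs it gave 19 higher and 5 lower in the heart, 14 and 3 in the kidney, 5 and 20 in the liver, 7 and 12 in the small intestine, and 15 and 8 in the spleen.

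Each group has 2 libraries, collagens under 1 TPM rest on few counts, and the deposited counts do not separate cell types.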
